A study of Mus musculus with 2 samples.

Results

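The 8 genes described here are markers of the tendon, cartilage and bone lineages: Tnmd, Scx, Mgp, Comp, Sox9, Runx2, Alpl (named Akp2 on the array) and Spp1. They were taken by name from the gene spots of both arrays of the series, and all 8 of 8 were found among 19505 genes with a name. They were chosen by measured values of these arrays, because Tnmd and Mgp were higher in the KO culture, so the values of those 2 genes there are a description. KO stands for PKGI -/- mice of the C57BL/6N background, which have no PKGI (a kinase that cGMP activates, made from the gene Prkg1), and WT for wild type littermates of the same background. On the BAT array, untreated brown adipose tissue (BAT, heat-producing fat) of a KO mouse in Cy5 was set against that of a WT littermate in Cy3. The adipocyte array carried cells cultured from brown fat precursors and turned into adipocytes in vitro. RNA of KO cells in Cy3 was set against RNA of WT littermate cells in Cy5. Age, sex, the deleted part of Prkg1 and the length of culture are not given in the sources used here.

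There was 1 array per comparison, with no repeat and no dye swap. Other animals or cultures were examined by PCR alone, per the design text, and those measurements are not used here. No test between KO and WT could be made, no p-value is given, and the values describe these RNA samples. Within 1 array, a bias of a probe toward either dye and a difference of genotype cannot be told apart. KO is called higher or lower than WT, and a gene is counted past 2-fold when its log2 ratio reached 1 or -1. Levels are normalized intensities on the log2 scale, where a step of 1 is a doubling. They are compared for 1 probe within 1 array, since probes differ in brightness and the arrays held different material. Ratios were normalized within each array, and levels were then scaled to a common spread of intensity over both. Where a probe had repeat spots, these varied with a pooled SD of 0.10 (log2, BAT array) or 0.09 (adipocyte array). These values leave out spots flagged as outliers among their repeats, and with them kept the SD was 0.14 and 0.10. The SD measures spotting and scanning error, not the spread between animals or cultures.

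Fat, tendon, cartilage and bone cells arise from related mesenchymal precursors, and each fate is set by transcription factors that switch on a matrix programme. Scx (scleraxis) directs tendon formation and acts on Tnmd in mice, Sox9 directs cartilage and Runx2 bone. Alpl, Spp1 and Mgp encode proteins that govern where mineral is laid down.

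The samples differed in their cell type markers, and these differences stand beside every result below. Prkg1 was lower in KO on both arrays, with a mean log2 ratio of -0.84 on the BAT array (3 probes, -1.29 to 0.01; -0.07 with outlier spots kept) and -1.03 on the adipocyte array (3 probes, -2.31 to 0.17). In the KO culture, all 14 of 14 adipocyte markers were lower and their summed intensity was 18520, against 261400 in the WT culture. Fabp4, a fatty acid carrier of fat cells, was 47.7-fold lower there, and leptin (Lep) was not well above background in the KO culture. The summed intensity of its label's own markers in the KO culture was thus 0.0708 of that in the WT culture. Of 17 macrophage markers in culture, 13 were lower and none higher (summed 89820 in KO and 319200 in WT). Of 10 smooth muscle and myofibroblast markers, 7 were higher and none lower in culture (summed 194900 in KO and 54170 in WT). In BAT, 0 of these 10 were higher and 2 were lower, with a median of -0.60 (summed 24980 in KO and 46070 in WT). The 2 were Tpm2 at -2.02 and Des at -1.45, and the others stayed under 2-fold, with 1 above 0. The 15 markers of fibroblasts and fat precursors had no member past 2-fold on either array, with medians of 0.16 in culture and -0.07 in BAT. In BAT, 16 of 17 skeletal muscle markers were lower in KO (summed 86880 in KO and 481900 in WT), and all 17 were well above background in both. Of 13 adipocyte markers kept in BAT, 2 were higher (Cfd at 1.78 and Cidea at 1.01) and 1 was lower, with a median of 0 and sums of 888400 in KO and 739200 in WT. The lower one was Ucp1, the uncoupling protein of brown fat, at a log2 ratio of -1.84. In bulk RNA, fewer cells of a type and less RNA per cell cannot be told apart. Sex-linked transcripts, chosen after their values were seen, differed too. In BAT, Xist, the RNA that silences an X chromosome in females, had a mean log2 ratio of 4.41 (3 probes, 1.63 to 7.72). Of the Y-linked genes in BAT, Eif2s3y was at least 84.7-fold lower and Kdm5d at least 4.44-fold lower, both not well above background in KO, and Ddx3y had a log2 ratio of -3.56. In culture, Xist had -3.36, while Eif2s3y had -0.12, Kdm5d 0.07 and Ddx3y 0.61. The part of these differences in the ratios of the markers, on either array, was not tested.

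**Figure D1:**
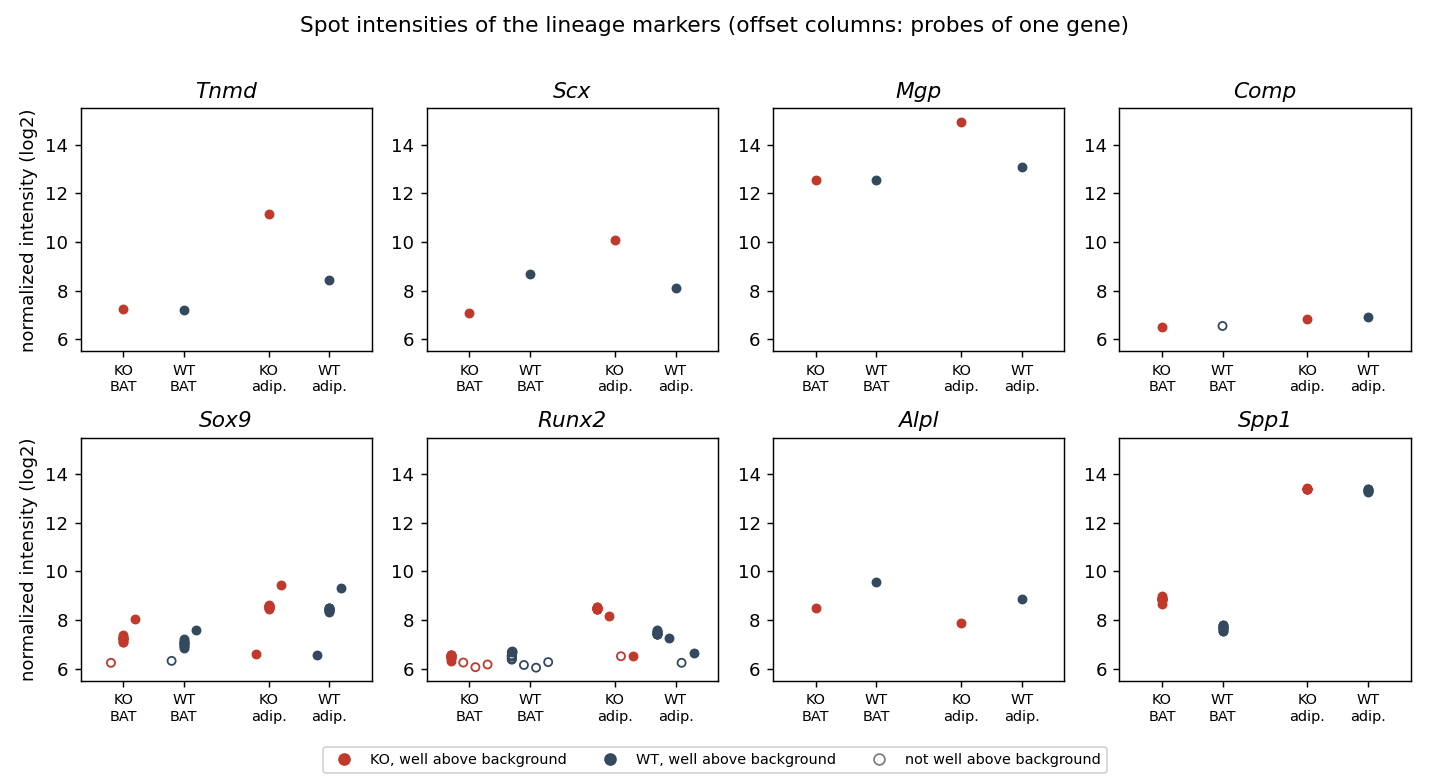
Normalized log2 intensity of each used spot of the 8 markers in KO and WT tissue (BAT) and in KO and WT culture (adip.), red for KO, dark for WT and open where not well above background; points set side by side within a sample are different probes, and heights are not comparable between genes. In culture Tnmd, Scx and Mgp are higher in KO, while in BAT Scx and Alpl are lower and Spp1 is higher in KO.

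In culture, 3 of the 8 markers were at least 2-fold higher in KO (Tnmd, Scx and Mgp) and 0 were lower, beside 2.49% of 15113 genes higher and 4.18% lower. Because Tnmd and Mgp were picked for that difference, nothing is read from the count. In BAT, 1 marker was higher (Spp1) and 2 were lower (Scx and Alpl), beside 0.800% of 15616 genes higher and 2.44% lower. The median log2 ratio of the 8 was 0.34 in culture and -0.02 in BAT, with a median of 0 over all genes on each array. In culture 6 of 8 ratios were above 0, and in BAT 3 of 8. All 8 passed the filter on dim probes on both arrays, but in BAT Runx2 and Comp passed only through the KO channel.

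Tnmd (tenomodulin), a membrane protein of mature tendon cells that human fat tissue also expresses, had the largest difference in culture among the 8. It had a level of 11.15 in the KO culture and 8.43 in the WT culture, both read from 1 spot. KO was thus 6.61-fold higher, a log2 ratio of 2.72, rank 6 of 15113 genes. In BAT the levels were 7.24 in KO and 7.20 in WT, a log2 ratio of 0.04 that is smaller than the repeat-spot SD. The scanner software's own error for this spot was 0.33 in culture and 0.26 in BAT on the log2 scale. The probe lies on chromosome X, at 128582161 to 128582220 in the array files' coordinates, with no build named in the sources used here. Tnmd is X-linked, and the sex-linked transcripts given above stand beside its values, their part not tested.

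The 250 bases before the Tnmd start (RefSeq, GRCm38.p6, chrX:133850758-133851007, plus strand) are shown because Tnmd differed most. They hold no E box (CANNTG, read on both strands, the motif of the protein class of Scx) and no RUNX core motif (TGTGGT, both strands). Of 32851 mouse promoter windows of this length, 66.2% held an E box and 14.0% the RUNX motif, and no match says only that these letters are not in this window.
Tnmd promoter: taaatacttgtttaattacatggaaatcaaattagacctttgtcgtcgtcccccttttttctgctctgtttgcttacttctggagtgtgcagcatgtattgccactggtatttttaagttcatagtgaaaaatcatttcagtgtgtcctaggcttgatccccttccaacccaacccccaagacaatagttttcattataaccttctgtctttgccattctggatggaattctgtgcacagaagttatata

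Scx, the tendon transcription factor, differed in opposite directions on the 2 arrays. In culture its level was 10.09 in KO and 8.09 in WT, a log2 ratio of 2.0, or 4-fold higher in KO, rank 35 of 15113. In BAT its level was 7.07 in KO and 8.70 in WT, a log2 ratio of -1.63, or 3.09-fold lower in KO. All 4 values were well above background. On each array the KO and WT values are the 2 dyes of 1 spot (chromosome 15, 76541831 to 76541890, build not given). The BAT ratio was -0.17 when spots with an outlier flag were also used for the background fit, and lay between -2.72 and -1.45 under the other settings. Of 14273 genes kept on both arrays, 18 were lower in BAT and higher in culture, and Scx was among them. So were Acta1 of the skeletal muscle list (-2.33 in BAT, 1.52 in culture) and Tpm2 of the smooth muscle list (-2.02 and 1.73). The difference between the arrays was not tested. The dyes were the other way round on the 2 arrays, so the Scx probe was brighter in Cy3 than in Cy5 both times, and a dye bias of this probe and a difference of genotype cannot be told apart. Beside it stand the skeletal muscle markers, low in the KO tissue. In culture 16 of them were kept, 1 was higher and 0 lower, with a median of -0.09. Of the 10 smooth muscle and myofibroblast markers, 2 were past 2-fold lower in the KO tissue, Tpm2 and Des. The others lay between -0.74 and 0.21 there. In the KO culture 7 of the 10 were past 2-fold higher. The part of both lists was not tested.

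Comp, cartilage oligomeric matrix protein, a glycoprotein of cartilage and tendon matrix, was dim throughout. Its levels were 6.83 in KO and 6.90 in WT culture, and 6.50 in KO and 6.54 in WT tissue, where WT was not well above background. The log2 ratios of -0.07 and -0.03 lie within the repeat-spot SD of each array.

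Mgp, matrix Gla protein, a secreted inhibitor of calcification made by cartilage and vascular smooth muscle cells, was bright in all 4 samples. In culture its level was 14.92 in KO and 13.10 in WT, a log2 ratio of 1.82, or 3.54-fold higher in KO (rank 52 of 15113). In BAT it was 12.53 in KO and 12.54 in WT, a log2 ratio of -0.01. With median centring in place of loess the BAT ratio was 0.57 and that of culture 1.39, while the median of all genes shifted by 0.25 in BAT and by -0.26 in culture. Its single probe lies on chromosome 6, 136897160 to 136897219, build not given. Both Tnmd and Mgp were near 0 in BAT, where the median of all genes was 0. That both were higher in the KO culture is the reason they were chosen, so no link between them is read from it.

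Among 11085 genes well above background in both channels of both arrays, the 3 with ratios nearest to those of Tnmd were Ccdc68, Ccn3 and Tagln. The measure was the Euclidean distance of the 2 log2 ratios, over 2 arrays only. Ccdc68 had -0.05 in BAT and 2.49 in culture, at a distance of 0.25. Ccn3, a secreted matricellular protein, had -0.14 in BAT and 2.47 in culture. Tagln, a smooth muscle actin-binding protein on the smooth muscle list above, had -0.44 in BAT and 2.62 in culture. For Mgp the nearest were C1qtnf7, Rgl2 and Serpina3n, all within 0.09. C1qtnf7, a secreted C1q-related protein, had -0.08 in BAT and 1.81 in culture. Rgl2, an exchange factor for Ral GTPases, had -0.08 and 1.87, and Serpina3n, a secreted protease inhibitor, had 0.03 and 1.91, in the same order.

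**Figure D2:**
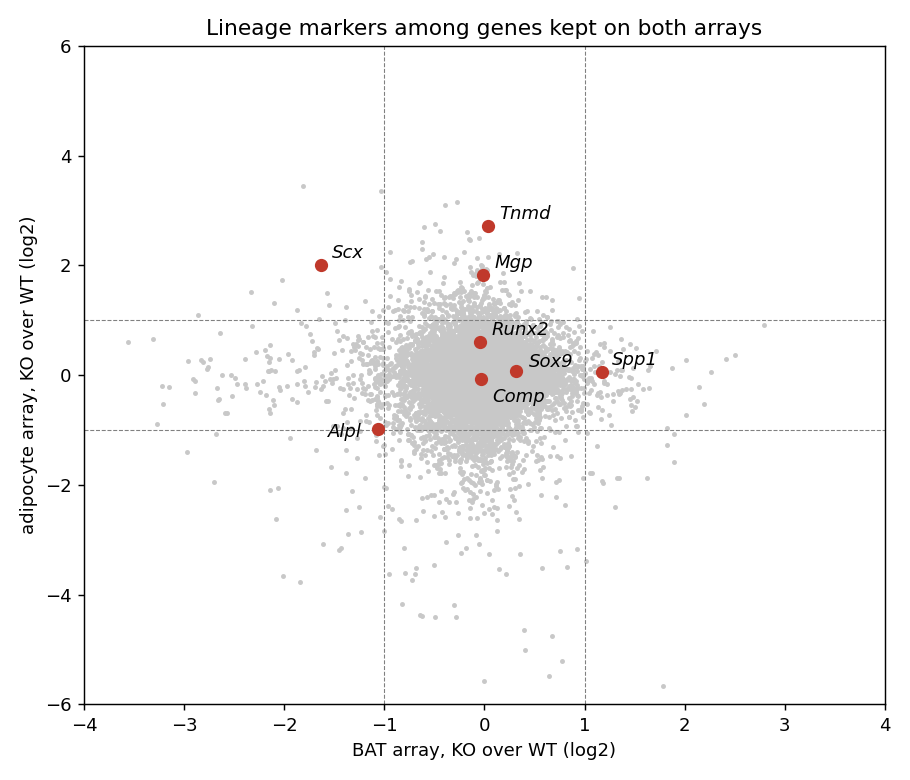
Log2 ratio of KO over WT on the BAT array (x axis) against the adipocyte array (y axis) for 14273 genes kept on both (gray) and the 8 markers (red); dashed lines mark 2-fold, and 2 genes lie outside the axes. Scx stands at the upper left (-1.63 and 2.0), Tnmd and Mgp at the top near 0 for BAT, and Alpl at the lower left.

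Sox9, the cartilage transcription factor, stayed under 2-fold on both arrays by all 3 of its probes, which span 4499 bases of chromosome 11. In culture the probe with 9 used spots read 8.47 to 8.62 in KO and 8.32 to 8.51 in WT. The ranges overlap across spots, but both channels are read from the same spot, and KO was above WT on 9 of 9. The log2 ratio was 0.10 ± 0.05 (SD, n = 9 spots), and the other 2 probes gave 0.11 and 0.03. In BAT the same probe read 7.08 to 7.39 in KO and 6.87 to 7.20 in WT, a log2 ratio of 0.20 ± 0.12 (SD, n = 9 spots). A brighter probe gave 0.45 there, and the probe at -0.08 was not well above background. The gene mean was 0.08 in culture and 0.32 in BAT.

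Runx2, the master factor of bone-forming cells, differed between its 4 probes in culture, which span 209684 bases of chromosome 17. The probe with 9 used spots (42727803 to 42727862) read 8.45 to 8.53 in KO and 7.44 to 7.59 in WT, with no overlap. Its log2 ratio was 1.00 ± 0.06 (SD, n = 9 spots). A neighbouring probe (42727941 to 42728000) gave 0.91, from 8.16 in KO and 7.25 in WT. The farthest probe (42937487 to 42937546) was dim and gave -0.10, and the fourth was not well above background. The gene mean of 0.60 therefore sits under 2-fold although 1 probe is at 2-fold. In BAT the repeated probe gave -0.04 ± 0.19 (SD, n = 10 spots), with KO well above background on 10 spots and WT on 2. The other 3 probes were not well above background there.

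The 250 bases before a Runx2 start (RefSeq, GRCm38.p6, chr17:44814628-44814877, minus strand) are shown as those of the bone factor among the 8. The capitals mark an E box whose first base lies 78 bases before the start and, overlapping it, a RUNX motif read on the other strand whose first base lies at 80. A match is a description of the letters only.
Runx2 promoter: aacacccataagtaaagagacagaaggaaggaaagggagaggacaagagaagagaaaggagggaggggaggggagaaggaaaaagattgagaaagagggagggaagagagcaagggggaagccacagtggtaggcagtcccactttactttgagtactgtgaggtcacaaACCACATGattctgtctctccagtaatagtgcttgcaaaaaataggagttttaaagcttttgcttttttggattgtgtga

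Alpl, tissue-nonspecific alkaline phosphatase, splits pyrophosphate and so allows mineral to form, and in mouse thermogenic fat it also splits phosphocreatine. It had close ratios on both arrays, lower in KO each time. With the dyes reversed between the arrays, its probe was brighter in Cy3 in BAT and in Cy5 in culture. A part of the dyes in either ratio was not tested. In culture its level was 7.86 in KO and 8.85 in WT, a log2 ratio of -0.99, or 1.98-fold lower, just short of the 2-fold line. In BAT its level was 8.51 in KO and 9.57 in WT, a log2 ratio of -1.06, or 2.08-fold lower. Each ratio rests on 1 spot (chromosome 4, 137120184 to 137120243, build not given), well above background in both dyes. In culture it passed 2-fold under 5 of 11 settings and reached -1.33, and in BAT it was -0.20 with outlier spots kept and -0.70 with median centring. The adipocyte markers given above, low in the KO culture and mixed in the KO tissue, stand beside these ratios, and their part was not tested.

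Spp1, osteopontin, is a secreted phosphoprotein of bone matrix and of macrophages. In BAT its probe, with 9 used spots, read 8.66 to 8.99 in KO and 7.55 to 7.78 in WT, with no overlap. The log2 ratio was 1.17 ± 0.12 (SD, n = 9 spots), or 2.25-fold higher in KO, rank 85 of 15616, and it was 0.13 with outlier spots kept. In culture 6 used spots read 13.38 to 13.42 in KO and 13.28 to 13.41 in WT. These ranges overlap across spots, while within each spot KO was above WT on 6 of 6. The log2 ratio in culture was 0.05 ± 0.04 (SD, n = 6 spots). There 4 spots had a population outlier flag and were left out. Of the 17 macrophage markers in BAT, 0 passed 2-fold, with a median of -0.11 and sums of 27530 in KO and 29060 in WT. Of the 9 osteoclast markers in BAT, 6 were kept, 0 passed 2-fold, and Calcr, Dcstamp and Atp6v0d2 were not well above background in either. In culture, where Spp1 was at 0.05, macrophage markers were low in KO as given above.

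The windows before the first listed starts of Alpl (chr4:137796385-137796634, minus strand) and Spp1 (chr5:104434861-104435110, plus strand), from RefSeq in GRCm38.p6, are shown because these genes differed in opposite directions in BAT. Capitals mark 1 E box in the Alpl window, 176 bases before the start. In the Spp1 window they mark a RUNX motif at 128 bases, read on the other strand, and an E box at 98 bases before the start. The table lists a second start for each gene, whose window held 2 E boxes and no RUNX motif for Alpl and likewise for Spp1, so the RUNX match of Spp1 is at the first start only.
Alpl promoter: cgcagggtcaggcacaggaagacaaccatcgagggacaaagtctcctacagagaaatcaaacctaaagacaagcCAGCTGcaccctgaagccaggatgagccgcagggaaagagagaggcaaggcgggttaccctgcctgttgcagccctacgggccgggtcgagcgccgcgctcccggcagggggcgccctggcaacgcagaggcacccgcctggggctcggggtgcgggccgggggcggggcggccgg
Spp1 promoter: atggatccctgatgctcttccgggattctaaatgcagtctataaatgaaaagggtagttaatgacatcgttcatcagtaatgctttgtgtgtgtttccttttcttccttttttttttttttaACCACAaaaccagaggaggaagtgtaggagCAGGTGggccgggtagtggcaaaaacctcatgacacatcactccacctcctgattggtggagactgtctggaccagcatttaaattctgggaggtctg

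A set of 4 lists of lineage genes, which hold the 8 markers and were chosen with earlier results of these arrays known, place the markers among related genes. They are described by counts and medians, with no test, beside the shares of all genes given above.

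Of the 18 tendon genes, 16 were kept in culture, 5 were higher and none lower, with a median log2 ratio of 0.23. Beside Tnmd and Scx these were Fmod, Tnc and Mkx, so without the markers 3 of 13 genes were higher, with a median of 0.20. Fmod, a collagen-binding proteoglycan, had a level of 9.00 in KO and 7.58 in WT, a log2 ratio of 1.42. Tnc, a matrix glycoprotein of developing tendon, had 1.32 (3 probes, 0.74 to 1.63). Mkx, a homeobox factor of tendon development, had 8.64 in KO and 7.51 in WT, a log2 ratio of 1.13, and was at 0.82 with median centring. With median centring the median of the list in culture was 0.00, and that of all genes there was -0.26. In BAT 15 were kept, none was higher and 3 were lower, with a median of -0.08. Beside Scx these were Thbs4, a matrix glycoprotein of tendon and muscle, at -1.52 (2 probes, -1.99 and -1.06), and Cilp, a cartilage matrix protein, at -1.12. With outlier spots kept, Thbs4 was at -0.28 and Cilp at -0.16, and 0 tendon genes were lower. Thbs4 and Cilp were not well above background in culture, and Mkx was not in BAT. Tnmd, Fmod and Tnc were well above background in BAT, with log2 ratios there of 0.04, 0.04 and -0.40. Of the 14273 genes kept on both arrays, 0 were higher on both and 33 were lower on both.

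Of the 26 cartilage genes, 18 were kept in culture, 1 was higher and 1 lower, with a median of 0.06. Matn3, a matrilin of cartilage matrix, had a log2 ratio of 1.18, and Trps1, a zinc finger repressor that acts in cartilage growth, had -1.23 (3 probes, -1.30 to -1.13). In BAT 19 were kept and 0 passed 2-fold, with a median of -0.03. The largest ratios there were those of Ucma, which was at least 1.67-fold lower and not well above background in KO, and Sox5, a partner of Sox9, at -0.68. With outlier spots kept, Ucma was at -0.03 and Sox5 at -0.06. The matrix genes Col2a1 and Acan were well above background in all 4 samples. The level of Col2a1 was 10.59 in KO and 10.68 in WT culture, and 10.68 in KO and 10.66 in WT tissue. That of Acan was 6.98 in KO and 6.89 in WT culture, and 7.42 in KO and 7.46 in WT tissue. Of the list, Col10a1, Ihh and Matn1 were not well above background in any of the 4 samples.

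Of the 31 bone genes, 26 were kept in culture, 3 were higher and 0 lower. The median was 0.21. None of the 3 is one of the markers. Bmp4, a bone morphogenetic protein ligand, had 11.90 in KO and 9.86 in WT, a log2 ratio of 2.04. Tnfrsf11b, osteoprotegerin, a decoy receptor that restrains osteoclasts, had 8.89 in KO and 7.23 in WT, a log2 ratio of 1.67. Omd, osteomodulin, a proteoglycan of bone matrix, had 10.99 in KO and 9.40 in WT, a log2 ratio of 1.59. In BAT 21 were kept, with Spp1 higher and Alpl and Sp7 lower, and a median of 0.00. Sp7 (osterix), the factor downstream of Runx2 in bone-forming cells, had 6.58 in KO and 7.59 in WT, a log2 ratio of -1.01, and -0.07 with outlier spots kept. Dlx3 was not well above background in any of the 4 samples.

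Of the 16 genes that control mineralization, 14 were kept in culture, with Mgp higher, Ahsg lower and a median of -0.09. Ahsg, fetuin-A, a serum inhibitor of calcification, had a log2 ratio of -1.32. Ank, an exporter of the mineral inhibitor pyrophosphate, had -0.91. In BAT 12 were kept, with Spp1 higher, Alpl lower and a median of -0.37. With median centring the list median was -0.15, and that of all genes was 0.25. With outlier spots kept the list median was -0.04, and that of all genes was 0.01. The largest others in BAT were Ank at -0.73, and Enpp1, which makes pyrophosphate, and Slc20a2, a phosphate transporter, both at -0.46. With outlier spots kept these were at -0.24, -0.04 and -0.08, in the same order.

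**Figure D3:**
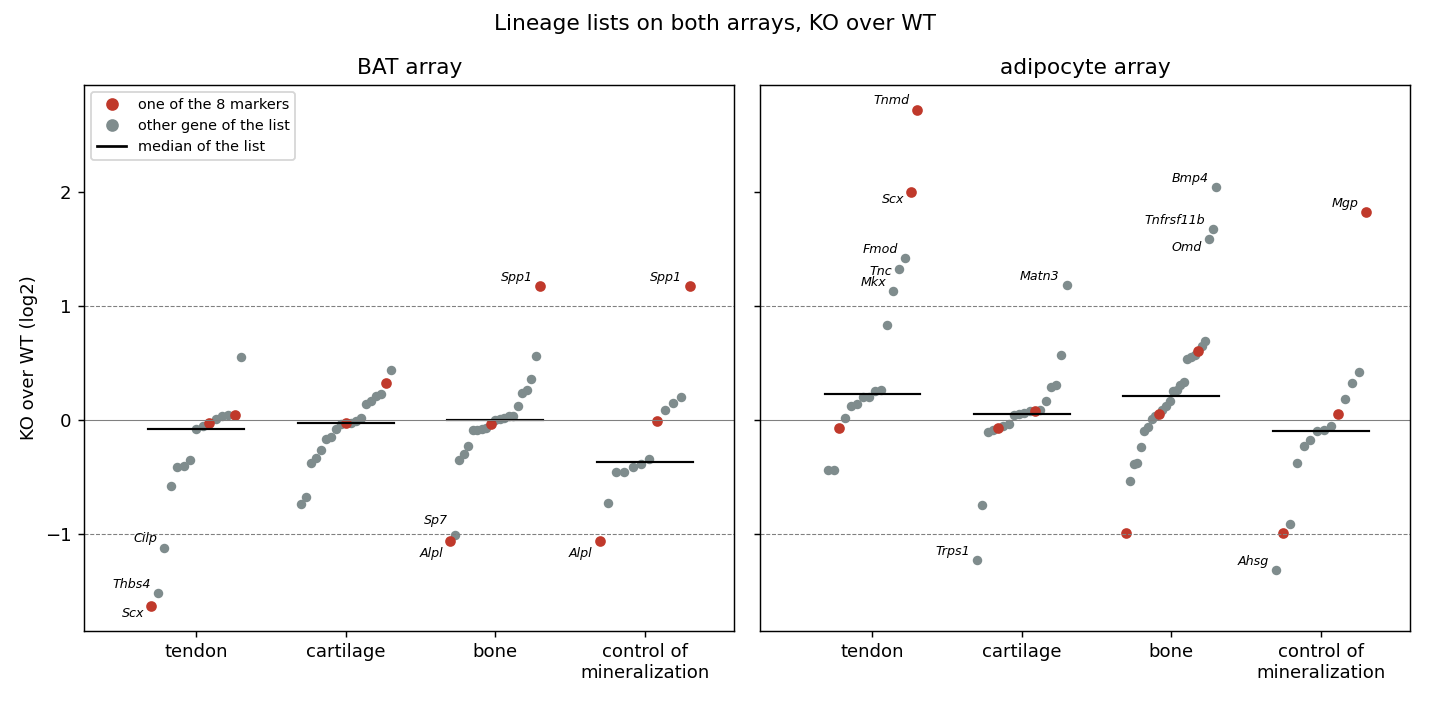
Log2 ratio of KO over WT of every kept gene of the 4 lineage lists on the BAT array (left) and the adipocyte array (right), with the 8 markers in red, other genes in gray, a bar at the median of each list and dashed lines at 2-fold. The genes past 2-fold in the tendon list lie below 0 in BAT (Scx, Thbs4, Cilp) and above 0 in culture (Tnmd, Scx, Fmod, Tnc, Mkx).

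Over all 11 settings Tnmd in culture lay between 2.30 and 2.83, Scx between 1.60 and 2.25 and Mgp between 1.39 and 1.85. In BAT, Scx, Alpl and Spp1 lost their 2-fold difference when outlier spots were kept. That setting was not particular to them: over all genes in BAT, higher ones went from 125 to 38 and lower ones from 381 to 98. Local background in the green channel reached 61344.5 on the BAT array (median 32), while its highest value on the adipocyte array was 86 (median 45).

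**Figure D4:**
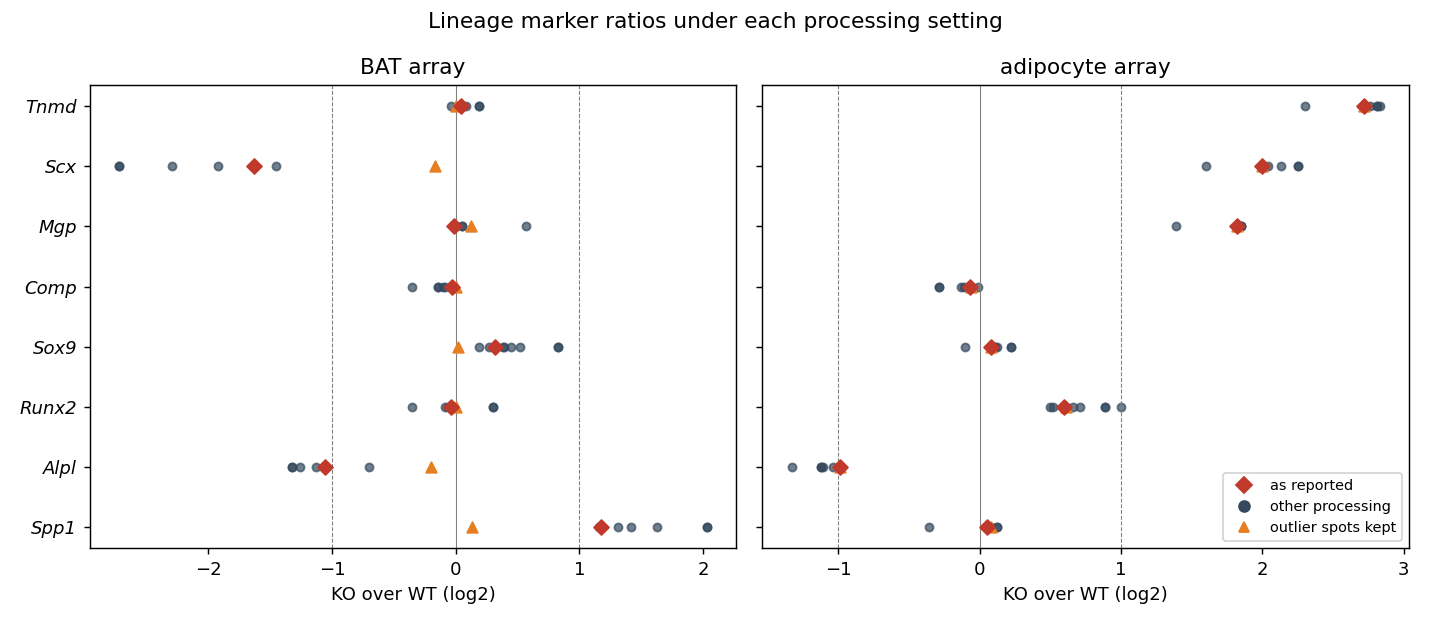
Log2 ratio of KO over WT of each marker on the BAT array (left) and the adipocyte array (right) as reported (red diamonds), with outlier spots kept (orange triangles) and under the other settings (dark circles); dashed lines mark 2-fold. In BAT the values of Scx, Alpl and Spp1 with outlier spots kept (-0.17, -0.20 and 0.13) lie near 0, and in culture Tnmd, Scx and Mgp stay above 2-fold throughout.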

How the data were processed

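Total RNA was amplified, labelled and hybridized to Agilent arrays with 2 dyes, per the labels' protocols. The deposited files of the scanner were made, per the file headers, by Agilent Feature Extraction 9.5.1.1 (protocol GE2-v5_95_Feb07) and give the intensity of each spot and its local background, and the log10 ratio of the dyes. The authors' deposited value table holds log10 ratios too.

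Log2 ratios were computed with limma 3.58.1 in R 4.3.3. Background was corrected by normexp (offset 50) and each array normalized by loess. Of 43379 gene spots, those with an outlier flag (BAT array 1215, adipocyte array 203) were left out before the fit. Probes well above background in 1 channel or both were kept and averaged per gene. The offset compresses ratios of dim probes. Levels are per channel after loess and Aquantile scaling. For "at least N-fold" the bright channel was divided by the dim value or, if greater, by the dimmest signal called well above background. Genes were named by the RefSeq table of GRCm38.p6, and 8455 of 41174 probes matched no gene. Promoter sequences were found for 4 of the 8 markers, and the other 4 are Mgp, Scx, Sox9 and Comp.

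The steps were tested on simulated data, with a KO channel made from the WT channel of each array. Only brighter genes were changed there, as many raised as lowered, and no dye bias was put in. The simulation therefore says nothing on dim markers or on dye bias. The members and lists were chosen with earlier results of these data known. Named beside the markers were, per list and array, up to 4 genes past 2-fold or else the 2 largest, Prkg1, and the 3 genes nearest to Tnmd and to Mgp. Ank in culture, Dlx3, Col10a1, Ihh, Matn1, Col2a1, Acan, Acta1, Cfd, Cidea, Ucp1, Tpm2, Des and the sex-linked genes were added after their values were seen. From other cell type lists, genes were named as needed, up to 3 of each among the brightest, and Lep, Calcr, Dcstamp and Atp6v0d2 were added as markers not well above background. The 10 alternatives changed background correction, normalization, the filter on dim probes, the treatment of outlier spots and the choice of probe, or used the software's or the deposited ratios.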

Additional observations from a re-analysis of the deposited data

Results flagged for a closer look

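Scx differed in opposite directions on the 2 arrays. Its log2 ratio of KO over WT was 2.0 in culture and -1.63 in BAT, a difference of 3.63. It was noted because a tissue sample and a culture sample of the same contrast lay past 2-fold on opposite sides. The difference was not tested, since each side is 1 spot on 1 array. The probe was brighter in Cy3 than in Cy5 on both arrays, because the dyes were reversed between them, so a dye bias of this probe and a difference of genotype cannot be told apart.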

How the results depend on the processing

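No paired analysis was possible because there was 1 array per comparison. Among the markers and the other named genes followed across settings, no value past 2-fold changed sign under any of the 10 alternatives. The signs of all other genes were not compared. Keeping population outlier spots, the setting chosen after seeing the data, moved no count by over 1.5 times. Under the alternatives 103 marker ratios moved by less than the repeat-spot SD and 55 by more. The causes below were not tested.

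Among all genes, higher ones in BAT numbered 125, and 385 with normexp offset 0, 672 with median centring in place of loess, 1402 with the Feature Extraction ratio, 1398 with the deposited ratio and 38 with outlier spots kept. Lower ones in BAT numbered 381, and 835 with offset 0, 950 with either ready-made ratio and 98 with outlier spots kept. In culture 377 were higher, and 617 with offset 0, 194 with median centring, 876 with the Feature Extraction ratio and 874 with the deposited one. There 631 were lower, and 1246 with median centring, 955 with the Feature Extraction ratio and 953 with the deposited one. The share of higher among called genes was 24.7% in BAT, and 62.2% with median centring, 59.6% with the Feature Extraction ratio and 59.5% with the deposited one. In culture it was 37.4%, 13.5% with median centring and 47.8% with either ready-made ratio.

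Among the 8 markers in BAT, 0 were higher and 0 lower with outlier spots kept, and 1 was lower with median centring. In culture 1 was lower (Alpl) with offset 0, without background correction, with median centring and with either ready-made ratio.

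In the tendon list in BAT, 1 gene was higher with median centring and 0 lower with outlier spots kept. In the bone list in BAT, 2 were higher with offset 0, 3 with either ready-made ratio and 0 with outlier spots kept, and 1 was lower with median centring or with outlier spots kept. In culture 5 bone genes were higher with offset 0 or either ready-made ratio, and 2 were lower with those settings, 1 without background correction and 1 with median centring. In the cartilage list in BAT, 3 were higher with either ready-made ratio, and 2 lower with those or offset 0, 1 with median centring. In culture 3 cartilage genes were higher with either ready-made ratio and 2 lower with those or offset 0. In the mineralization list in BAT, 2 were higher and 2 lower with either ready-made ratio, 0 higher with outlier spots kept, and 0 lower with median centring or outlier spots kept. In culture 2 were lower with offset 0, without background correction and with either ready-made ratio, and 3 with median centring.

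Runx2 and Comp in BAT lie near background, which limits what their ratios can show.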
